A study of Mus musculus with 45 samples.

Results

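Clustered protocadherins are cell surface adhesion proteins of the cadherin superfamily, best known for giving each neuron its own surface identity. Their genes lie in 3 neighbouring arrays, called alpha, beta, and gamma. In the alpha and gamma arrays each variable exon has its own promoter, encodes the extracellular and transmembrane parts, and is spliced to a shared set of constant exons that encode the common cytoplasmic end, whereas each beta gene is a single exon with no constant part. A neuron is known to transcribe a small, largely random subset of the alpha, beta, and gamma genes, while the C-type genes at the downstream ends of the alpha and gamma arrays are switched on in a more regular way. Homophilic matching of these proteins is known for dendritic self-avoidance, axon arborization, and the survival of interneurons.

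The members were all genes whose symbol begins with Pcdha, Pcdhb, Pcdhga, Pcdhgb, or Pcdhgc followed by a number or by c and a number. The rule found 49 of the 53491 genes in the tables. They were 8 alpha genes, 20 beta genes, 17 gamma A and gamma B genes (here gamma A/B), and 4 C-type genes (Pcdhac1, Pcdhac2, Pcdhgc3, and Pcdhgc4). All 49 lie on the forward strand of chromosome 18, between positions 36930184 and 37841873 of GRCm38. A further 8 symbols of the annotation, Pcdha4, Pcdha6, Pcdha7, Pcdhb21, Pcdhb22, Pcdhga4, Pcdhga8, and Pcdhgc5, had no row and were not analysed here.

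The data were SLAM-seq libraries, in which incorporated 4-thiouridine (4sU) is alkylated and read as a T-to-C conversion. Primary cortical cells of wild-type mouse embryos at E11.5, E14.5, or E16.5 were cultured with 100 uM 4sU for 20 h in a progenitor medium. A chase with 5 mM uridine followed, and RNA was taken at its start (0 h) and at 2, 4, 8, or 12 h. Each of the 3 replicates of a stage (A, B, and C) was a pool of 7 embryos at E11.5 or of 2 embryos at the later stages, and one pool supplied the wells of all 5 chase times, so the design held 15 groups and 45 libraries. No transgene, deletion, or drug other than 4sU and uridine distinguished the groups, and age and embryo number per pool changed together between E11.5 and the later stages. The libraries held 15.9 to 43.9 M reads (median 33.0 M) that covered 229 to 629 M T positions. A single transcript, Gm42418, took 0.163% to 8.16% of the reads of a library.

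The labelled cell type was checked on lists of markers. The 10 neuronal markers summed to 2960 to 3517 cpm (reads scaled to the total of the library) at E11.5, 5938 to 6618 cpm at E14.5, and 8471 to 8903 cpm at E16.5. The 8 radial glia markers summed to 9718 to 10250 cpm, 3716 to 4313 cpm, and 1496 to 1646 cpm in the same order. Vim alone had a mean of 6985 cpm at E11.5 and 2324 cpm at E14.5. Of the 8, 7 were called lower and 1 higher from E11.5 to E16.5 in the gene-by-gene test described below. Slc1a3 went the other way between the first stages, from 99.1 to 290 cpm. The 5 mural cell and fibroblast markers stood at 423 to 645 cpm at E11.5 and at 9.32 to 25.3 cpm later, and the 5 interneuron markers at 33.6 to 40.8 cpm at E11.5, 47.8 to 50.3 cpm at E14.5, and 249 to 256 cpm at E16.5. No marker in these 4 lists was at 0 in all 3 libraries of a stage. In such bulk samples a change in the number of cells of a type and a change in RNA per cell cannot be told apart.

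Before levels were compared, the rows were checked for shared reads. Pcdha1 and Pcdha8 had 0 reads in 2 of the 3 E11.5 libraries at 0 h, where Pcdha12 had 131 to 194 reads, so reads of the alpha constant exons were not added to every alpha row. In the gamma array Pcdhgb8 had 19 to 39 reads in the libraries in which Pcdhgc3 had 2359 to 3229. Whether 1 row of an array also holds reads of its constant exons could not be told for the gamma array, where T makes up 23.4% of the constant exons and 23.7% (median) of the gamma A/B variable exons. Stretches of 60 bases that recur elsewhere in the locus made up 7.58% to 13.6% of the alpha variable exons and at most 8.47% of a beta gene, at most 14.497% of a gamma A/B variable exon, and 0% of the C-type exons. Of the 49 genes, 10 overlapped an annotated antisense gene, among them Pcdha12, Pcdhb12, Pcdhgb7, Pcdhga11, and Pcdhgc3, and the strand setting of the counting is not given in the sources used here. Another 3 overlaps were with a gene on the same strand: Pcdha11 with Gm18150, Pcdhgb1 with Pcdhga4, and Pcdhgb4 with Pcdhga8. Since Pcdhga4 and Pcdhga8 had no row, whether the Pcdhgb1 and Pcdhgb4 rows hold their reads could not be told.

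Summed levels of all 3 arrays were higher at each later stage. The 20 beta genes together stood at 63.6 ± 3.98 cpm (SD, n = 3, as for all levels and half-lives given with ±, whereas ± gives the SE for log2 fold changes) at E11.5, 142 ± 11.2 cpm at E14.5, and 222 ± 4.26 cpm at E16.5, a 3.50-fold difference between the first and the last stage. The 8 alpha genes together stood at 11.2 ± 1.50, 25.2 ± 1.36, and 42.2 ± 3.97 cpm, a 3.77-fold difference. The 17 gamma A/B genes stood at 125 ± 8.12, 165 ± 0.639, and 245 ± 8.67 cpm, which is 1.96-fold. The ranges of the replicates did not overlap between stages in any of these 3 sums. Of all reads on the 49 genes, beta genes held 19.2% ± 1.16 at E11.5 and 31.3% ± 0.508 at E16.5, while the share of Pcdhgc3 alone was 36.0% ± 0.494 at E11.5 and 24.4% ± 0.695 at E16.5.

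**Figure D1:**
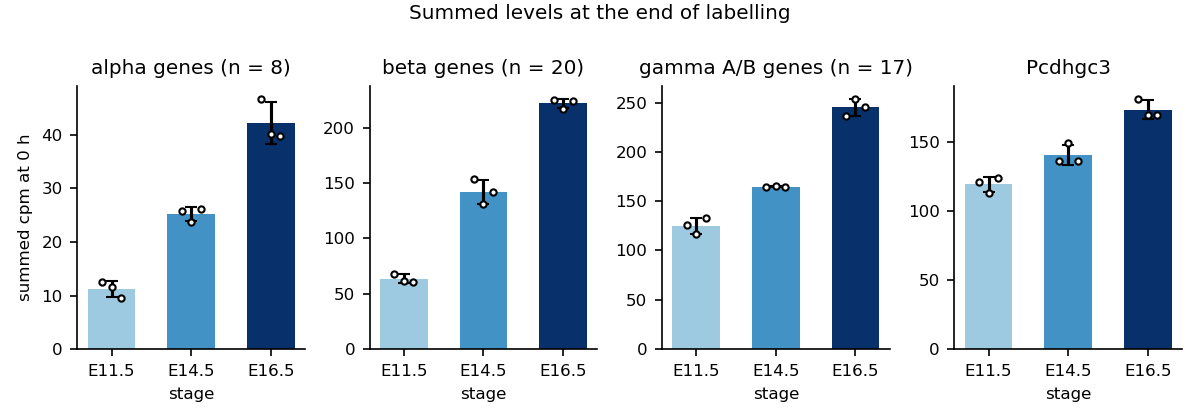
Summed level at 0 h in cpm of the alpha genes, the beta genes, the gamma A/B genes, and Pcdhgc3 by embryonic stage. Bars are means, error bars SD, and points the 3 replicates; beta genes went from 63.6 to 222 cpm, and Pcdhgc3 from 119 to 174 cpm.

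Set against the neuronal markers, the classes differed. Per 1000 cpm of summed neuronal markers, beta genes went from 20.4 ± 2.90 cpm (E11.5) to 22.6 ± 0.575 cpm (E14.5) and 25.5 ± 1.01 cpm (E16.5). The alpha genes stood at 3.61 ± 0.788, 4.01 ± 0.122, and 4.83 ± 0.414 cpm. The gamma A/B genes stood at 39.9 ± 2.54, 26.3 ± 1.50, and 28.1 ± 1.18 cpm on this scale, so their ratio was lower at both later stages than in any E11.5 replicate. The part of the changing cell mixture in the levels was not tested.

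The stages were then compared gene by gene at 0 h with edgeR's quasi-likelihood test on the covered T positions, with Benjamini-Hochberg adjustment over 18408 genes. Calls needed both a change beyond 1 on the log2 scale and an adjusted p under 0.05. Of the 49 members, 46 passed the filter on low counts and were tested. Pcdha1, Pcdha8, and Pcdhb1 were not. From E11.5 to E14.5, 21 of the 46 were called higher and 1 lower, against a background of 8.14% of all genes called higher and 8% called lower. From E14.5 to E16.5, 9 were called higher (background 7.19%) and 0 lower (background 5.92%). From E11.5 to E16.5, 35 were called higher (background 14.7%) and 0 lower (background 14.6%). The median log2 fold change of the 46 genes over this last comparison was 1.61, and that of all genes tested was -0.04. On the adjusted p alone, 35 rose and 1 fell in the first step (backgrounds 25.1% and 23.5%), 39 rose and 0 fell in the second (24.1% and 25.4%), and 44 rose and 0 fell over both (31.4% and 33.1%). A set of 30 members rose by this measure in both steps, but no share of all genes is given for that count.

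All 19 beta genes tested were called higher at E16.5 than at E11.5, by 1.04 to 2.83 on the log2 scale. The steepest were Pcdhb12 and Pcdhb9. Pcdhb12 had 0.509, 0.625, and 0.884 cpm at E11.5, 2.97, 2.54, and 2.09 cpm at E14.5, and 5.29, 3.65, and 4.33 cpm at E16.5, a log2 fold change of 2.83 with an SE of 0.24 (adjusted p = 2.42e-07 by edgeR) from the first to the last stage. Pcdhb9 had 1.29, 1.20, and 1.85 cpm at E11.5 and 10.3, 8.93, and 10.3 cpm at E16.5, a log2 fold change of 2.82 ± 0.23 (adjusted p = 1.95e-07). No replicate of either gene overlapped between those stages. The E11.5 values rest on only 13 to 23 reads a library for Pcdhb12 and 25 to 48 for Pcdhb9. Among the abundant beta genes, Pcdhb17 had 12.5, 11.1, and 8.34 cpm at E11.5, 25.2, 20.4, and 23.8 cpm at E14.5, and 34.6, 33.4, and 36.1 cpm at E16.5 (log2 fold change 1.77 ± 0.13). Pcdhb19 had 6.22, 5.77, and 5.57 cpm, then 17.2, 15.8, and 17.7 cpm, and then 26.6, 27.1, and 28.0 cpm (2.29 ± 0.08, adjusted p = 1.53e-10). Pcdhb20 had 6.30, 7.02, and 5.84 cpm, then 15.8, 11.4, and 13.8 cpm, and then 20.4, 21.02, and 24.1 cpm (1.83 ± 0.13). In all 3 genes every replicate was above every replicate of the stage before. Pcdhb6 was at the low end of the beta genes, with a log2 fold change of 1.04 ± 0.15, and without E11.5 replicate B its value was 0.91, below the limit for a call. Between E11.5 and E14.5, 13 of 19 beta genes were called higher, and between E14.5 and E16.5, 1 of 19 (Pcdhb2, 1.09 ± 0.20). On the adjusted p alone, 18 of 19 rose in the first step and 16 of 19 in the second, with median log2 fold changes of 1.28 and 0.69.

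Levels of different beta genes were compared per kb of exon, in cpm per kb. Pcdhb17 was the highest at every stage, at 2.28 ± 0.455, 4.96 ± 0.526, and 7.45 ± 0.294 cpm per kb. Averaged over the 9 libraries at 0 h, the next were Pcdhb20 (3.92 cpm per kb), Pcdhb7 (3.38), Pcdhb19 (2.33), and Pcdhb16 (1.97), and the lowest were Pcdhb12 (0.838), Pcdhb14 (0.696), and Pcdhb1 (0.0161). The annotated length of Pcdhb14 is 8695 bases, where the beta median is 3634.5. Before division by length, Pcdhb14 had 9.91 ± 1.01 cpm and Pcdhb12 4.42 ± 0.824 cpm at E16.5. The low place of Pcdhb14 thus depends on that length. At E16.5 the replicates of Pcdhb17, Pcdhb20, Pcdhb7, Pcdhb19, and Pcdhb9 did not overlap with those of the next gene in the order except for Pcdhb9 and Pcdhb16. From Pcdhb10 (1.94 cpm per kb) down to Pcdhb14 (1.14 cpm per kb) every neighbour in the order overlapped. Pcdhb1, the beta gene nearest to the alpha array, stood apart below them, with 0 to 0.0962 cpm in the 9 libraries.

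**Figure D2:**
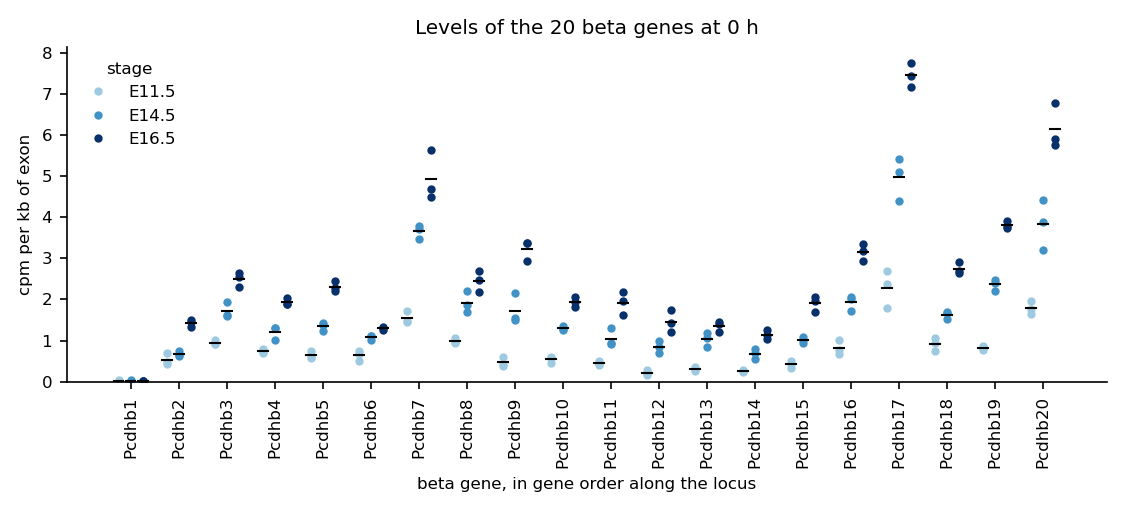
Level of each of the 20 beta genes at 0 h in cpm per kb of exon, in gene order along the locus, by embryonic stage. Points are the 3 replicates and lines their means; Pcdhb17 is highest at every stage and Pcdhb1 is near 0 throughout.

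The beta levels stayed about as evenly spread over the genes while their sum grew, although single genes changed places. Pcdhb17, Pcdhb20, and Pcdhb7 were the highest in this order at every stage, whereas Pcdhb9 went from 0.473 to 3.23 cpm per kb and passed Pcdhb8, which went from 0.990 to 2.45 cpm per kb between E11.5 and E16.5. The 5 highest genes of each library held 49.4% ± 2.67 of the summed beta level per kb at E11.5, and the shares were 49.6% ± 0.788 and 48.1% ± 2.65 at the later stages. The effective number of beta genes, the exponential of the Shannon entropy of their shares, was 15.8 ± 0.536, 16.01 ± 0.170, and 16.3 ± 0.445. In the alpha array the same number went from 3.55 ± 0.424 to 4.87 ± 0.236 and 5.77 ± 0.124 of 8 genes, with no overlap of replicates between stages. Among the 17 gamma A/B genes it was 13.2 ± 0.144, 13.9 ± 0.073, and 14.1 ± 0.114.

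Among the 6 alpha genes tested, the change was largest at the upstream end and smallest at the downstream end. Pcdha2, near the upstream end, had 0.587, 0.385, and 0.308 cpm at E11.5, 2.48, 1.85, and 2.42 cpm at E14.5, and 7.23, 4.22, and 4.30 cpm at E16.5. Its log2 fold change from E11.5 to E16.5 was 3.68 ± 0.29 (adjusted p = 1.28e-07 by edgeR), the largest of the members tested. The E11.5 values of Pcdha2 rest on only 8 to 15 reads a library. Pcdha3, Pcdha5, and Pcdha9 changed by 2.83 ± 0.22, 2.69 ± 0.17, and 2.72 ± 0.19, with no clear order among them. Pcdha11 and Pcdha12, the downstream pair, changed by 1.88 ± 0.19 and 1.05 ± 0.14. Both overlap the annotated antisense gene Gm10545, and whether its reads entered these 2 rows was not tested. Pcdha12 was already the highest alpha gene at E11.5, with 7.59, 6.92, and 5.04 cpm, and had 14.3, 11.3, and 12.6 cpm at E16.5. Without E11.5 replicate C its log2 fold change was 0.90, below the limit for a call. Per kb of variable exon at E16.5, Pcdha2, Pcdha3, Pcdha5, and Pcdha9 had means of 2.10 to 2.56 cpm, below Pcdha12 (5.14 ± 0.601) and above Pcdha11 (0.939 ± 0.127), with no overlap of replicates between Pcdha2 and Pcdha11. The length used for Pcdha11 joins 2 annotated gene entries and is 5822 bases, where the alpha median is 2480. Before division by length, Pcdha11 had 5.47 ± 0.741 cpm and Pcdha2 5.25 ± 1.72 cpm at E16.5. The place of Pcdha11 below Pcdha2 per kb thus depends on that length. Pcdha1 and Pcdha8 stayed low, at 0 to 0.0384 and 0 to 0.115 cpm at E11.5 and at 0.403 to 0.495 and 0.228 to 0.427 cpm at E16.5. The alpha variable exons had the highest median share of recurring 60-base stretches (10.8%, against 2.26% in beta and 0.201% in gamma A/B genes), and how the counting split reads of such stretches is not given in the sources used here.

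Among the gamma A/B genes the largest changes lay at the upstream end. The first 4 of them with a row, Pcdhga1, Pcdhga2, Pcdhga3, and Pcdhgb1, had log2 fold changes of 1.39 to 2.56 from E11.5 to E16.5 (median 2.34), and the other 13 gamma A/B genes had -0.40 to 1.25 (median 0.85). The cut after 4 genes followed no rule set beforehand. Changes of the other 13 did not fall steadily along the array, and the largest, that of Pcdhgb7, lay near its downstream end. Pcdhga1 had 3.05, 2.69, and 2.31 cpm at E11.5, 7.51, 7.02, and 7.65 cpm at E14.5, and 14.7, 15.9, and 14.6 cpm at E16.5, a log2 fold change of 2.56 ± 0.12 (adjusted p = 8.92e-10 by edgeR). Pcdhgb1 and Pcdhga2 changed by 2.40 ± 0.13 and 2.28 ± 0.14. Pcdhga11, the highest gamma A/B gene at E11.5, had 23.2, 19.1, and 21.1 cpm there and 23.3, 26.3, and 23.6 cpm at E16.5, a log2 fold change of 0.30 ± 0.10. Its neighbour Pcdhgb7 had 15.3, 15.4, and 16.7 cpm at E11.5 and 33.7, 36.0, and 36.7 cpm at E16.5, a log2 fold change of 1.25 ± 0.08, and was the highest at both later stages. Across genes, Spearman's rho between position in the array and log2 fold change was -0.94 over 6 alpha genes, -0.63 over 17 gamma A/B genes, and 0.47 over 19 beta genes. With the C-type genes included it was -0.905 over 8 genes of the alpha array and -0.467 over 19 genes of the gamma array. These genes share libraries and neighbouring promoters and are not independent replicates.

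**Figure D3:**
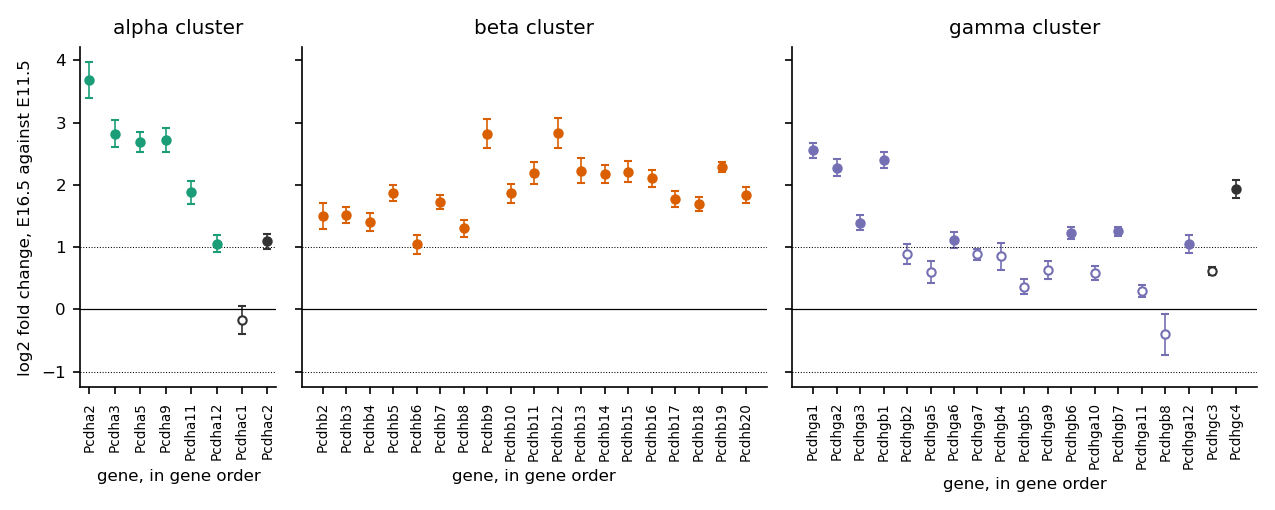
Log2 fold change at 0 h from E11.5 to E16.5 with its SE, for the 46 members tested, in gene order within the alpha, beta, and gamma arrays. Filled points are genes called and black points C-type genes; values fall from 3.68 at Pcdha2 to 1.05 at Pcdha12, and the first 4 gamma genes lie between 1.39 and 2.56.

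Pcdhgb8, annotated as a polymorphic pseudogene, was the only member called lower in any stage comparison. It had 1.53, 0.914, and 0.923 cpm at E11.5, 0.467, 0.396, and 0.403 cpm at E14.5, and 0.685, 1.33, and 0.935 cpm at E16.5. The fall to E14.5 was -1.55 ± 0.33 on the log2 scale (adjusted p = 0.0019 by edgeR) and was followed by a rise of 1.15 ± 0.33 (adjusted p = 0.012). The rise was 0.88 without E16.5 replicate B, below the limit for a call. These levels rest on 12 to 56 reads a library.

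The 4 C-type genes did not move as one. Pcdhgc3, the most abundant clustered protocadherin, had 121, 113, and 124 cpm at E11.5, 137, 149, and 136 cpm at E14.5, and 182, 170, and 170 cpm at E16.5. Its log2 fold change over both steps was 0.62 ± 0.07 (adjusted p = 3.35e-06 by edgeR), past the test but below the limit for a call. Per kb of variable exon it stood at 51.4 ± 2.06 cpm at E16.5, where the highest gamma A/B gene, Pcdhgb7, stood at 13.7 ± 0.611. Whether the Pcdhgc3 row also holds reads of the gamma constant exons could not be told, and if it does, its level per kb of variable exon is too high. Pcdhgc4, known for its part in interneuron survival, had 2.39, 3.22, and 3.58 cpm at E11.5, 6.26, 5.34, and 6.63 cpm at E14.5, and 11.6, 11.4, and 10.9 cpm at E16.5, a log2 fold change of 1.93 ± 0.15 (adjusted p = 1.01e-07). The summed interneuron markers given above were also higher at E16.5, with most of their rise after E14.5, and their part in this result was not tested.

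Pcdhac2, known for its role in serotonergic axons, changed only in the second step. It had 7.12, 7.69, and 6.81 cpm at E11.5, 5.90, 7.19, and 6.20 cpm at E14.5, and 16.7, 13.3, and 13.9 cpm at E16.5. Its log2 fold change was -0.10 ± 0.12 (adjusted p = 0.517 by edgeR) in the first step and 1.20 ± 0.12 (adjusted p = 4.62e-06) in the second. Pcdhac1 had 2.19, 1.49, and 2.11 cpm at E11.5 and 1.79, 1.68, and 1.20 cpm at E16.5, and these ranges overlapped (log2 fold change -0.17 ± 0.23, adjusted p = 0.541).

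Other genes of the same biology, taken from lists, moved in several directions, and their counts are to be read against the 14.7% of all genes called higher and the 14.6% called lower from E11.5 to E16.5. Of 10 nonclustered protocadherins, which are single genes elsewhere in the genome, 4 were called higher and 1 lower from E11.5 to E16.5, namely Pcdh20 (3.63 ± 0.32), Pcdh1 (2.57 ± 0.10), Pcdh7 (2.14 ± 0.10), Pcdh8 (1.15 ± 0.12), and, falling, Pcdh19 (-1.34 ± 0.07). Of 17 genes known to act on protocadherin promoter choice (CTCF, cohesin and its loaders, DNA methylation, and silencing factors), 0 were called higher and 3 lower over the same interval: Dnmt3b (-1.91 ± 0.19), Rest (-1.40 ± 0.11), and Stag2 (-1.01 ± 0.08). By adjusted p alone 2 of the 17 rose and 14 fell (backgrounds 31.4% and 33.1%), with a median log2 fold change of -0.41. Dnmt3b encodes the methyltransferase known to silence clustered protocadherin promoters in early embryos. Of 16 intracellular partners, 2 were called higher, Ptk2b (2.59 ± 0.28), a kinase that the cytoplasmic domains inhibit, and Cyfip2 (1.18 ± 0.11), a subunit of the WAVE complex that they recruit, and 0 were called lower.

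Levels were also followed over the chase. Over the 15 libraries of a stage the beta genes together ranged from 52.1 to 68.1 cpm at E11.5, 117 to 153 cpm at E14.5, and 205 to 233 cpm at E16.5. In the comparison of 12 h with 0 h, 0 of 46 members were called at E11.5, and 0 of 48 at each later stage (backgrounds in stage order 3.69%, 1.99%, and 2.63% of all genes), by edgeR. At an unadjusted p under 0.05 there were 4, 6, and 9 members, where all genes tested gave 6086 of 18877, 5167 of 18784, and 6923 of 18733. DESeq2 called 1, 0, and 0. With the pool as a block, 1 member was called at E11.5, Pcdha2, with a log2 fold change of 1.04 and an adjusted p of 0.032, against 1.01 and 0.058 without the block. In a test of the difference of the 12 h change between stages, 0 members were called (backgrounds 1.42%, 0.0987%, and 1.75%), with 10, 1, and 4 of 46 members at an unadjusted p under 0.05, where all genes gave 3000, 1957, and 3705 of 17224.

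The decay of label separated the gamma from the beta genes. Converted T positions of all genes of a class were summed over covered T positions in each library, scaled to 0 h, and fitted with a single exponential per replicate. For the 20 beta genes the pooled half-life went from 6.22 ± 1.53 h (E11.5) to 6.04 ± 0.417 h (E14.5) and 3.99 ± 0.116 h (E16.5). That of the 17 gamma A/B genes was 8.70 ± 1.26 h, 11.53 ± 1.73 h, and 7.24 ± 0.326 h. Over all genes in the tables it was 5.05 ± 0.492, 5.25 ± 0.261, and 4.03 ± 0.067 h. Fitted hours were thus shorter at E16.5 for this pool too. In stage order, the converted share of all genes was 1.18% ± 0.230, 1.10% ± 0.076, and 1.86% ± 0.057 at 0 h. At 12 h, 23.4% ± 3.08, 23.7% ± 1.83, and 13.3% ± 0.094 of that share remained. Whether the higher share at 0 h affects the fitted hours at E16.5 was not tested. The gamma A/B pool outlasted the beta pool in 9 of 9 replicates, by 1.10-fold to 2.27-fold (median 1.78). The alpha pool, at 6.06 ± 1.17, 6.57 ± 1.33, and 4.14 ± 0.219 h, outlasted the beta pool in 5 of 9, which is no separation. Because the genes of a pool share each library, these are descriptions and carry no test.

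A second measure bears on these values. At 12 h the converted share should have decayed with the RNA, but in 8 members it stayed above 0.5% of covered T positions over the 9 libraries of that time: Pcdhb3, Pcdhb4, Pcdhb5, Pcdhgb4, Pcdhgb5, Pcdhgb8, Pcdhga10, and Pcdhga12. The highest were Pcdhgb8 (1.88%), Pcdhgb4 (1.28%), Pcdhb5 (1.15%), and Pcdhb4 (1.01%). The median over 12349 transcripts with enough coverage was 0.226%, and 5.60% of those transcripts lay above 0.5%. Of the members, 36 had that coverage and 7 of them lay above 0.5%. Pcdhgb8 did not have it, with only 4 to 9 converted T positions in each E16.5 library of 12 h. In the E16.5 libraries Pcdhb5 went from 2.60% converted at 0 h to 1.19% at 12 h, and Pcdhgb8 from 3.84% to 2.93%, whereas Pcdhb17 went from 1.71% to 0.195%. A single exponential that decays to 0 reads such a remainder as a long half-life. What keeps these shares high was not tested. The threshold of 0.5% was chosen after the values were seen; Pcdhga12 (0.528%) was just inside it and Pcdhb6 (0.473%) just outside.

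**Figure D4:**
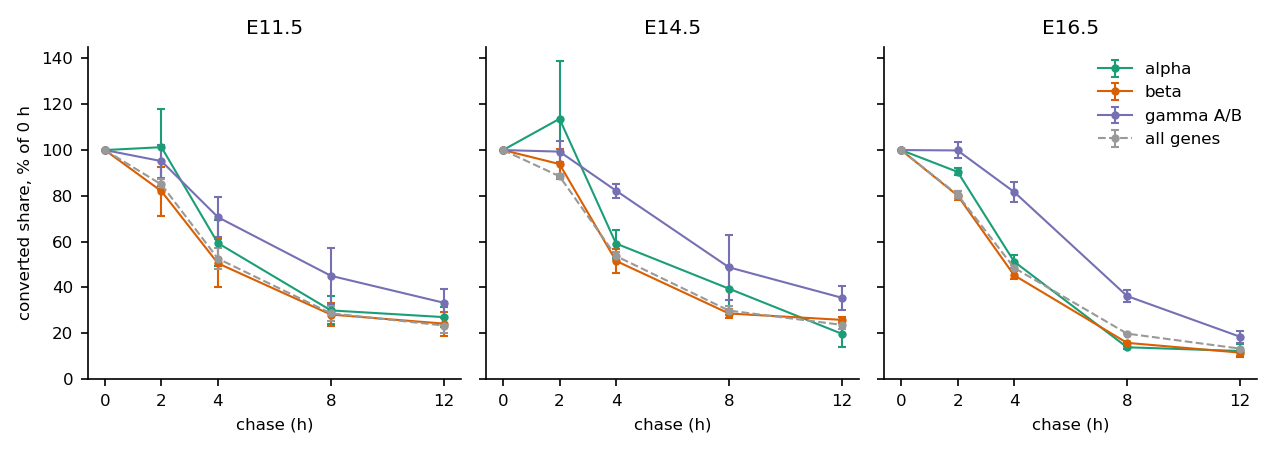
Converted share of covered T positions at 0, 2, 4, 8, and 12 h of chase, in percent of the share at 0 h, for the alpha genes, the beta genes, the gamma A/B genes, and all genes, by embryonic stage. Points are means of 3 replicates and error bars SD. The 8 members above 0.5% at 12 h were left out of the beta and gamma A/B genes but not out of all genes. At E16.5 and 4 h the gamma A/B genes retained 81.7% and the beta genes 45.3%.

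Without these 8 genes the gap between the classes remained. The pooled half-life was then 4.92 ± 1.13, 5.35 ± 0.510, and 3.73 ± 0.150 h for the other beta genes, and 7.99 ± 1.95, 9.23 ± 1.36, and 6.86 ± 0.261 h for the other gamma A/B genes. The gamma pool outlasted the beta pool in 9 of 9 replicates, by 1.25-fold to 2.11-fold (median 1.80). The beta pool without them outlasted the pool of all genes in 3 of 9 replicates, and in 7 of 9 with them. The pool of all genes kept its own genes above 0.5%, so the 3 of 9 does not compare like with like. The shapes of the curves differed early: at E16.5 the gamma A/B genes retained 99.8% ± 3.47 of their 0 h share at 2 h and 81.7% ± 4.26 at 4 h, while the beta genes retained 80.1% ± 1.90 and 45.3% ± 1.65. All genes together retained 80.5% ± 1.77 and 48.6% ± 1.03. At 12 h the 2 classes were closer, at 18.5% ± 2.57 and 11.6% ± 1.45. In all 9 replicates the gamma share at 4 h was above the beta share.

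Pcdhgc3, which shares the gamma constant exons and whose row may hold their reads, lay between the gamma A/B pool and all genes. Its half-life in replicates A, B, and C was 5.68, 5.73, and 4.34 h for the E11.5 pools, 5.68, 6.34, and 6.17 h for the E14.5 pools, and 5.09, 5.19, and 5.21 h for the E16.5 pools. The gamma A/B pool without the genes high at 12 h outlasted it in 9 of 9 replicates, by 1.25-fold to 1.79-fold. Pcdhgc3 in turn outlasted the pool of all genes in 8 of 9 replicates (0.953-fold to 1.29-fold), and at E16.5 it retained 66.0% ± 3.34 of its 0 h share at 4 h. These values for Pcdhgc3 rest on 99 to 204 converted T positions in each library of 12 h, the most of any member.

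Single genes were then given half-lives where all 3 replicates had over 500 covered T positions at every time, an R2 over 0.6, and a half-life under 24 h. In stage order, 16, 22, and 39 of the 49 members had one. Coverage was met by 30, 44, and 44 members. At E16.5 the 13 gamma A/B genes measured ranged from 5.84 to 9.70 h, and all 13 lay above the median of all transcripts, 3.48 h. The 17 beta genes ranged from 2.56 to 7.88 h, with 8 above that median. The 6 alpha genes ranged from 3.68 to 5.14 h. Without the genes high at 12 h, 10 of 10 gamma A/B genes (5.84 to 7.75 h) and 5 of 14 beta genes (2.56 to 5.13 h) lay above it. The transcript medians were not filtered in this way, so counts made without these genes do not compare like with like. The longest beta half-lives at E16.5, those of Pcdhb4 (7.88 ± 1.93 h) and Pcdhb5 (7.30 ± 0.842 h), belonged to genes high at 12 h. At the earlier stages 8 and 6 gamma A/B genes were measured, with 7 and 6 of them above the transcript medians of 4.43 and 4.60 h. Of the beta genes, 2 of 5 lay above it at E11.5 and 9 of 13 at E14.5 (8 of 12 without the genes high at 12 h).

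**Figure D5:**
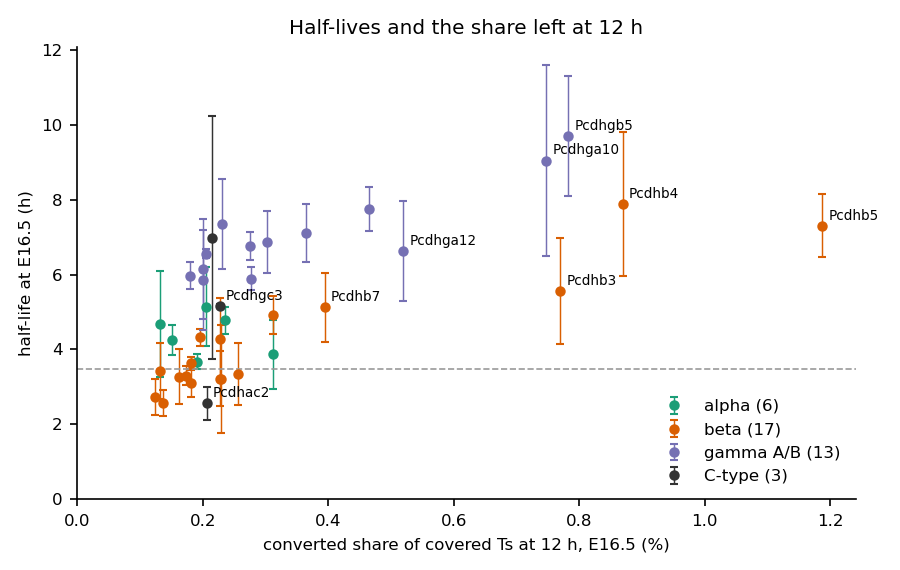
Half-life at E16.5 in h (mean and SD of 3 replicates) against the converted share of covered T positions at 12 h in percent, for the 39 members with a half-life. The dashed line is the median of all transcripts, 3.48 h; gamma A/B genes lie above most beta genes at the same share, and Pcdhb3, Pcdhb4, Pcdhb5, Pcdhgb5, Pcdhga10, and Pcdhga12 lie to the right of 0.5%.

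A half-life at all 3 stages was available for 11 members: Pcdhb7, Pcdhb16, Pcdhb17, Pcdhb18, Pcdhb20, Pcdhga2, Pcdhga3, Pcdhga6, Pcdhgb6, Pcdhgc3, and Pcdhac2. Among the 5 beta genes, Pcdhb7 had the longest at every stage, at 7.55 ± 0.582, 7.82 ± 0.956, and 5.13 ± 0.921 h. Pcdhb17 had 3.64, 5.53, and 3.17 h in the E11.5 pools, 5.50, 5.34, and 5.49 h in the E14.5 pools, and 4.22, 4.16, and 4.57 h in the E16.5 pools. Pcdhb16, Pcdhb18, and Pcdhb20 had means between 3.10 and 3.34 h at E16.5, and their replicates overlapped. In the libraries of 12 h these beta genes had as few as 2 converted T positions (Pcdhb16, Pcdhb18, and Pcdhb20 at E11.5), so their single values are imprecise.

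Stages were compared on half-lives turned into z-scores within each replicate, which removes the shift of the whole transcriptome. In the F-test of limma over 9505 transcripts, 0 of the 11 members were called at an adjusted p under 0.05 (background 3.15%), and 3 had an unadjusted p under 0.05. The lowest adjusted p were those of Pcdhga6 (0.069) and Pcdhgc3 (0.088). In the comparison of E16.5 with E11.5 alone, 1 of the 11 was called longer (background 2.99%, or 4.7% in either direction). This was Pcdhgc3, whose z-score was 0.27 at E11.5 and 0.86 at E16.5, a difference of 0.59 with an adjusted p of 0.046. In hours its mean was 5.25 ± 0.788 at E11.5 and 5.16 ± 0.065 at E16.5, so the difference was one of rank among transcripts. With the replicate letter as a block the adjusted p was 0.093, and leaving out 1 replicate gave 0.044 to 0.140, with 8 of the 9 values above 0.05. In the other pairwise comparisons 0 of the 11 were called, for E14.5 against E11.5 (background 0.2%, longer 0.126%; 3 members at an unadjusted p under 0.05) and for E16.5 against E14.5 (background 0.884%, longer 0.684%; 1 member).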

How the data were processed

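The authors dissociated cortices, labelled and chased the cells, and aligned and counted stranded mRNA libraries with SlamDunk on mm10, summing over annotated exons. The deposited tables give, per gene and library, counts of covered T positions (summed coverage on T), the conversion rate as a fraction of them, reads in CPM (scaled to the library total), and a half-life in another unit, h, per replicate, used here only to check the refit: 99.99% of 117534 fits were within 1%. The CPM values corresponded to whole reads in 100% of cases (tolerance 0.01).

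Counts were tested with edgeR 4.0.16 (TMM, quasi-likelihood, over 10 covered T positions in every library compared), with DESeq2 1.42.0 as an alternative. Each read covers several T positions, so the recovered reads were run too. Half-lives were refitted as exp(-kx) and z-scores tested with limma 3.58.1. Python 3.11.15 and R 4.3.3 were used. Scripts were tested on simulated data. Covered T positions came to 229 to 629 M a library. Precision is limited by 3 replicates a group, which are separate embryo pools; wells of 1 letter within a stage come from 1 pool, and their deviations at 0 and 12 h correlated at 0.085 to 0.27 over genes.

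Genes named were the C-type genes, the 5 highest and 3 lowest beta genes per kb, genes called, beta genes with a half-life at all stages, and up to 3 called genes a list and comparison; genes high at 12 h and Pcdh19 were named after their values were seen, as was Pcdh8 from E11.5 to E16.5. The members and lists were chosen with earlier results of these data known. Lengths per kb and overlaps came from a GENCODE annotation of the same build. Further marker lists were summed in cpm at 0 h (range over the E11.5, then the later libraries): erythroid cells 1499 to 3253, then 85.8 to 205; intermediate progenitors 261 to 333, then 170 to 343; Cajal-Retzius cells 65.0 to 104, then 111 to 213; glia 122 to 151, then 309 to 493; microglia 5.95 to 8.88, then 6.96 to 11.8; endothelium 3.11 to 4.58, then 0.828 to 3.79.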

Additional observations from a re-analysis of the deposited data

How the results depend on the processing

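Between stages at 0 h, DESeq2, RLE size factors, recovered reads, and no filter on low counts gave 22 to 24, 8 to 9, and 34 to 36 members called for the 3 comparisons (E14.5 against E11.5, E16.5 against E14.5, and E16.5 against E11.5), within 1.5 times of 22, 9, and 35. A test against the 2-fold limit itself (glmTreat) called 13, 0, and 30, and no minimum fold 36, 39, and 44. Leaving out 1 replicate gave 22 to 23, 8 to 12, and 33 to 36. The letter as a replicate block left 22, 9, and 35; letters do not pair the pools of different stages (correlations of deviations -0.057 to 0.058), and the block changed no call but those of Pcdha2 at 12 h and Pcdhgc3 given above. For 12 h against 0 h at E11.5, DESeq2 and the replicate block called 1 member each in place of 0, and leaving out 1 replicate called 0; with no minimum fold there were 1, 1, and 4 at the 3 stages.

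Members with a half-life numbered 8, 7, and 22 at the 3 stages in order with R2 over 0.8, and 2 and 9 at the first 2 stages with over 2000 covered T positions. Judged on 2 of 3 replicates they numbered 19 to 21, 24 to 26, and 40 to 41. The F-test called 1 of 1 member with R2 over 0.8, 2 of 13 with a free amplitude, 2 of 11 in hours (Pcdhb7 and Pcdhga6), and 0 to 1 without 1 replicate (Pcdhb17 without E11.5 replicate B, Pcdhga6 without E14.5 replicate B). Shares of all transcripts called under these settings are not given here. The test in hours keeps the shift of the whole transcriptome that z-scores remove, so its 2 calls do not show a change relative to other transcripts. Pooled half-lives without the genes high at 12 h moved to 5.35 and 3.73 h for beta and 9.23 and 6.86 h for gamma A/B genes at E14.5 and E16.5. With all genes but without 1 replicate, the beta values ranged over 5.47 to 7.00, 5.84 to 6.26, and 3.92 to 4.03 h and the gamma A/B values over 8.03 to 9.27, 10.9 to 12.5, and 7.06 to 7.37 h at the 3 stages; leaving these genes out was chosen after seeing the data.

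Small log2 fold changes from E11.5 to E14.5 reversed when 1 replicate was left out: Pcdhga10 ranged from -0.0222 (without E14.5 replicate C) to 0.0907, Pcdhga11 from -0.11 to 0.0557 (without E11.5 replicate A), and Pcdhga5 from -0.0175 (without E11.5 replicate B) to 0.24. The half-life difference of Pcdhgc3 reversed to -0.0880 h in hours without z-scores. The share of the 5 highest beta genes ranged from 46.6% to 50.9% without 1 replicate and from 47.4% to 48.9% per T of the exon. The causes were not tested. Depth also limits half-lives, since few converted T positions remain at 12 h.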
